A study of Mus musculus with 12 samples.

Results

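Calcium cycling genes of cardiomyocytes are the genes whose proteins release Ca2+ from the sarcoplasmic reticulum (SR), buffer it there, pump it back and export it from the cell. The 10 genes described here, Ryr2, Trdn, Jph2, Casq1, Casq2, Hrc, Atp2a2, Pln, Sln and Slc8a1, were chosen by name, and all 10 were found among the 26190 genes of the expression table and passed the low-count filter in each comparison. RNA-seq was performed on 12 mouse libraries in 4 groups of 3 replicates. Atria and ventricles were dissected from embryonic hearts of C57BL/6 mice at E11.5 (E11.5H). Atrium-like and ventricle-like parts were cut from heart organoids (HOs) at day 13 of culture. HOs were grown from embryoid bodies of mouse embryonic stem cells on a laminin-entactin gel in medium with FGF4, followed by BMP4, BIO and LIF. The labels give C57BL/6 for all libraries, while the methods name wild-type ESC lines from C57BL/6 and from an F1 hybrid of C57BL/6 and JF1. The parts were separated by dissection and hold all the cells of the tissue, with no sort for cardiomyocytes, and the labels do not say how many hearts or HOs entered a library.

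In a heartbeat, Ca2+ that enters through L-type channels opens the ryanodine receptor, and the SR releases the Ca2+ that drives contraction. Relaxation follows when the SERCA pump returns Ca2+ to the SR and the Na+/Ca2+ exchanger moves the rest out of the cell. Phospholamban and sarcolipin are small membrane proteins that restrain SERCA, and in the mouse heart phospholamban is known as the ventricular and sarcolipin as the atrial inhibitor.

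Levels are given as FPKM, the fragments of a gene per kilobase of transcript relative to the size of the library, as the authors deposited them, and differences as log2 fold changes from fragment counts by edgeR. A gene was called at a Benjamini-Hochberg adjusted p under 0.05, over all genes tested, with an absolute log2 fold change over 1. Libraries held 23971258 to 30540993 fragments, and the lowest count of a calcium cycling gene in any library was 54. The p-values measure the spread between the replicate libraries, since the methods call the HOs biological triplicates but the labels do not tie libraries to animals or cultures. The common biological coefficient of variation was 0.211 between libraries of E11.5H and 0.677 between those of HOs. The 16 cardiomyocyte genes used as a marker list (Tnnt2, Actn2, Ttn, Myh6 and others, with no calcium cycling gene among them) were above 0 in each library, with summed levels in E11.5H of 14709 to 17192 FPKM (atria) and 17601 to 18062 FPKM (ventricles). The sums in HOs were 263 to 993 FPKM (atrium-like) and 1579 to 3828 FPKM (ventricle-like). In bulk tissue, fewer cardiomyocytes and less RNA per cardiomyocyte cannot be told apart. Genes of hepatocytes and visceral endoderm summed to 650.1 to 13527 FPKM (atrium-like) and 107 to 5412 FPKM (ventricle-like), against 13.1 to 16.9 FPKM in E11.5H. Replicate 2 of both HO parts held the skeletal muscle factors Myod1 (10.2 and 19.3 FPKM) and Myog (29.0 and 30.0 FPKM), while the other 4 HO libraries were at 0 for Myod1. Neural genes summed to 87.1 and 370.4 FPKM in these 2 libraries and to 1.21 to 79.5 FPKM in the other HO libraries.

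**Figure D1:**
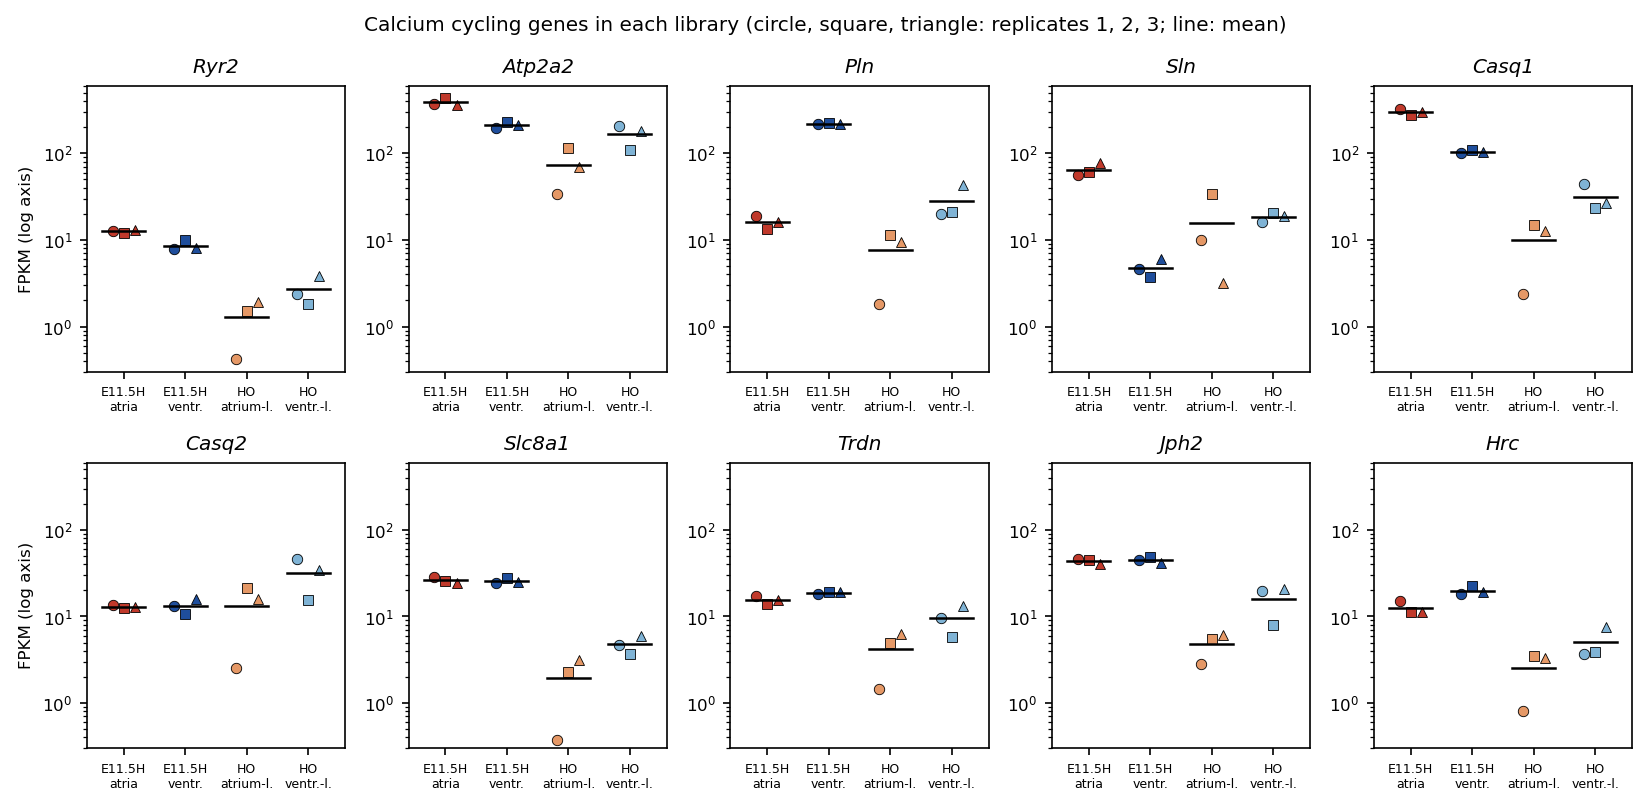
FPKM of each calcium cycling gene in each of the 12 libraries on a log axis, with symbols for replicates 1, 2 and 3 and a line at the mean of 3. Pln stood at 218 to 226 FPKM in ventricles of E11.5H and 13.4 to 19.1 FPKM in atria, Sln at 3.75 to 5.99 and 55.5 to 77.2 FPKM, and the HO libraries spread more widely than those of E11.5H.

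To place the sequence next to the levels, the 250 bases before the transcript start were taken from RefSeq (GRCm38.p6), which held 7 of the 10 genes. The entries for Atp2a2, Sln and Trdn were not used here. Pln is shown because it had the largest fall from ventricles to atria, and Casq1 and Casq2 because these paralogs took different courses from embryo to HO. Each is read 5′ to 3′ along the strand of the gene, with capitals at matches to the motifs searched on both strands, namely the MEF2 and SRF motifs, the letters CCAAT bound by NF-Y, the letters GATAA bound by GATA factors and the letters CATTCC bound by TEAD factors. The E-box letters CANNTG were searched too and are not in capitals. The capitals do not overlap in these windows.
Pln, chr10:53337436-53337685, plus strand: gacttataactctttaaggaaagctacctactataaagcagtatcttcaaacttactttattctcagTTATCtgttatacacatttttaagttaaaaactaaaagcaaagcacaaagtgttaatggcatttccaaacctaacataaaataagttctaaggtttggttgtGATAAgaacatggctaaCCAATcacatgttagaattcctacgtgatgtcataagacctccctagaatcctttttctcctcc
Casq1, chr1:172219896-172220145, minus strand: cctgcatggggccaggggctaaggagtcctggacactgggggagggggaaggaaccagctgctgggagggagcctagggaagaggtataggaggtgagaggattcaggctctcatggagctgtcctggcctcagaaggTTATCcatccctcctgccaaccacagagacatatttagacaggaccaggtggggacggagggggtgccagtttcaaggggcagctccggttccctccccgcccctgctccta
Casq2, chr3:102086165-102086414, plus strand: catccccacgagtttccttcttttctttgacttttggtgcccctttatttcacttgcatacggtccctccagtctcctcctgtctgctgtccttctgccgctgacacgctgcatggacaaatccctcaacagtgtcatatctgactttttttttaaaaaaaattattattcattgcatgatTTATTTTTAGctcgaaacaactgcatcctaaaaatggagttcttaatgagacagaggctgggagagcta
Counted back from the start, the Pln window held CCAAT at -64 to -60 and the GATA letters at -81 to -77 and, on the other strand, at -183 to -179. The Casq1 window held the GATA letters at -112 to -108 on the other strand, and the Casq2 window a MEF2 match at -69 to -60. Of 32851 RefSeq promoter windows of this length, 33.8% held the NF-Y letters, 22.6% the GATA letters, 12.6% the TEAD letters, 2.92% a MEF2 match and 1.47% an SRF match, so a MEF2 match is rarer than the others in these windows except SRF. Neither the SRF motif nor the TEAD letters stood in the 3 windows. E-box letters stood in all 3, at -59 to -54 for Pln, at -195 to -190 and -67 to -62 for Casq1 and at -200 to -195 and -52 to -47 for Casq2, and 66.2% of all windows held them.

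The release unit comprises the channel and the proteins that anchor it. Ryr2 (chromosome 13, 11553103 to 12106945 of GRCm38/mm10), the cardiac ryanodine receptor, was at 12.8, 12.1 and 12.9 FPKM in atria of E11.5H (replicates 1 to 3, in this order throughout) and at 7.77, 9.95 and 8.13 FPKM in ventricles. In HOs it was at 0.422, 1.5 and 1.93 FPKM in atrium-like parts and at 2.36, 1.84 and 3.85 FPKM in ventricle-like parts. Every HO library lay below every E11.5H library, and the HO parts overlapped each other. Trdn (chromosome 10, 33083483 to 33476709), triadin, which links the channel to calsequestrin, was at 17.4, 13.9 and 15.4 FPKM in atria and 18.0, 19.3 and 19.2 FPKM in ventricles. In HOs Trdn was at 1.46, 4.96 and 6.33 FPKM in atrium-like and 9.55, 5.87 and 13.2 FPKM in ventricle-like parts. The embryonic chambers did not overlap, with atria lower, whereas the HO parts did. Jph2 (chromosome 2, 163336242 to 163397993), junctophilin 2, which holds the SR to the plasma membrane, was at 46.3, 44.7 and 40.5 FPKM in atria and 44.7, 49.1 and 41.8 FPKM in ventricles. Atrium-like parts had 2.82, 5.55 and 6.16 FPKM and ventricle-like parts 19.6, 8.02 and 20.5 FPKM of Jph2. The embryonic chambers thus shared 1 level, and the HO parts were separate from them and from each other.

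The store of the SR is held by calsequestrins and the histidine-rich Ca2+ binding protein. Casq1 (chromosome 1, 172209894 to 172219895), the calsequestrin known from fast skeletal muscle, was at 323, 274 and 299 FPKM in atria of E11.5H and at 99.97, 110.1 and 105 FPKM in ventricles. In HOs it was at 2.39, 14.8 and 12.7 FPKM in atrium-like and 44.8, 23.4 and 26.6 FPKM in ventricle-like parts. The 4 groups of libraries did not overlap, and the chamber that was higher in the embryo was the lower one in HOs. Casq2 (chromosome 3, 102086415 to 102146512), the cardiac calsequestrin, was at 13.6, 12.4 and 13 FPKM in atria and 13.3, 10.8 and 15.7 FPKM in ventricles. In HOs Casq2 reached 2.56, 21.5 and 15.8 FPKM in atrium-like and 45.8, 15.6 and 34.8 FPKM in ventricle-like parts. Atrium-like parts overlapped the atria, and 2 of 3 ventricle-like libraries lay above all ventricles. Hrc (chromosome 7, 45335269 to 45338972), which binds Ca2+ in the SR lumen, was at 14.9, 11.3 and 11.4 FPKM in atria and 18.3, 22.3 and 18.9 FPKM in ventricles. HO levels of Hrc were 0.805, 3.52 and 3.29 FPKM in atrium-like and 3.70, 3.88 and 7.64 FPKM in ventricle-like parts. Atria were below ventricles and atrium-like parts below ventricle-like parts, without overlap in either tissue.

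Uptake rests on the pump and its inhibitors. Atp2a2 (chromosome 5, 122453513 to 122502225), which encodes the cardiac SERCA pump, was at 372, 436 and 361 FPKM in atria of E11.5H and 198, 233 and 214 FPKM in ventricles. In HOs it was at 33.8, 117 and 70.2 FPKM in atrium-like and 206, 109 and 180.4 FPKM in ventricle-like parts. Ventricle-like parts overlapped the embryonic ventricles, while atrium-like parts were far below the atria. Pln (chromosome 10, 53337686 to 53345999), phospholamban, was at 19.1, 13.4 and 16 FPKM in atria and 218, 226 and 218 FPKM in ventricles. In HOs Pln was at 1.82, 11.6 and 9.39 FPKM in atrium-like and 20.2, 21.3 and 43.1 FPKM in ventricle-like parts. The HO parts kept apart in the direction of the embryonic chambers, with ventricle-like parts just above atria of E11.5H. Sln (chromosome 9, 53850251 to 53853849), sarcolipin, was at 55.5, 61.1 and 77.2 FPKM in atria and 4.68, 3.75 and 5.99 FPKM in ventricles. In HOs Sln was at 10.01, 34.2 and 3.19 FPKM in atrium-like and 16.2, 20.7 and 18.9 FPKM in ventricle-like parts. The atrium-like libraries held both the highest and the lowest HO value of Sln, and each ventricle-like library exceeded each embryonic ventricle. The highest was replicate 2, 1 of the libraries with Myod1, and the part of skeletal muscle cells in this value was not tested.

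Extrusion is the task of Slc8a1 (chromosome 17, 81373105 to 81738387), the Na+/Ca2+ exchanger NCX1. It was at 28.9, 25.5 and 24.5 FPKM in atria of E11.5H and 24.6, 28.1 and 25.1 FPKM in ventricles. In HOs it was at 0.372, 2.29 and 3.13 FPKM in atrium-like and 4.68, 3.66 and 5.99 FPKM in ventricle-like parts. The embryonic chambers overlapped, and the HO parts did not, with atrium-like parts lower. Pln lies within Cep85l on the opposite strand (0.66 to 2.23 FPKM) and Trdn overlaps D830005E20Rik (0 to 0.239 FPKM), and since the use of strand in counting is not given in the sources used here, fragments of each pair cannot be told apart. Cep85l had 139 to 536.5 fragments per library, and the lowest Pln value, in atrium-like replicate 1, rests on 129.

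The order of mean levels per length differed between the chambers of E11.5H. In atria Atp2a2 (389 ± 40.5 FPKM, SD, n = 3) stood first, followed by Casq1 (299 ± 24.5), Sln (64.6 ± 11.2), Jph2 (43.8 ± 2.99) and Slc8a1 (26.3 ± 2.31), each separate from the next. Pln and Trdn overlapped after these, and so did Casq2, Ryr2 and Hrc. In ventricles Pln (220.4 ± 4.48 FPKM, SD, n = 3) and Atp2a2 (214.9 ± 17.5) overlapped at the top, Casq1 (105 ± 5.05) came next, and Sln (4.81 ± 1.12) was last. In HOs most neighbours in the order overlapped. The exception was Atp2a2 in ventricle-like parts, which at 165 ± 50.4 FPKM (SD, n = 3) lay above Casq2 (32.1 ± 15.3) in every library.

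Between the chambers of E11.5H, 3 of the 10 genes were called. Casq1 and Sln were higher in atria and Pln was higher in ventricles, against a background of 4.9% of the 14536 genes tested in this comparison. Sln was 12.8-fold higher in atria (log2 fold change 3.68, standard error 0.22, edgeR adjusted p = 3.85e-06). Pln was 14.3-fold lower in atria (log2 fold change -3.84, standard error 0.13, edgeR adjusted p = 1.56e-07). Casq1 was 2.71-fold higher in atria (log2 fold change 1.44, standard error 0.084, edgeR adjusted p = 3.33e-06). Omitting 1 library at a time, the values ran from 3.52 to 3.89 for Sln, from -3.99 to -3.71 for Pln and from 1.36 to 1.51 for Casq1, and the 3 calls remained. With all 12 libraries in 1 fit, where the wide spread of HO libraries enters, Sln had an edgeR adjusted p of 0.0606 and Casq1 of 0.411.

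Of the other genes, 4 had an adjusted p under 0.05 with a fold change below the limit, which made 7 of the 10 at any fold change, against 13.6% of all genes tested. Atp2a2 was higher in atria, by 0.79 on the log2 scale (edgeR adjusted p = 1.98e-04), as was Ryr2, by 0.48 (edgeR adjusted p = 0.00746). Hrc was at -0.73 (edgeR adjusted p = 0.00626) and Trdn at -0.35 (edgeR adjusted p = 0.0476), both lower in atria. Jph2 at -0.11, Casq2 at -0.10 and Slc8a1 at -0.047 did not pass (edgeR adjusted p = 0.405, 0.727 and 0.782). The calls between the chambers thus lay in both SERCA inhibitors and Casq1, with differences below the fold limit in the pump, the channel, triadin and Hrc. The fitted log2 fold changes had a median of -0.074 over the 10 genes, and that over all genes tested was 0.014.

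**Figure D2:**
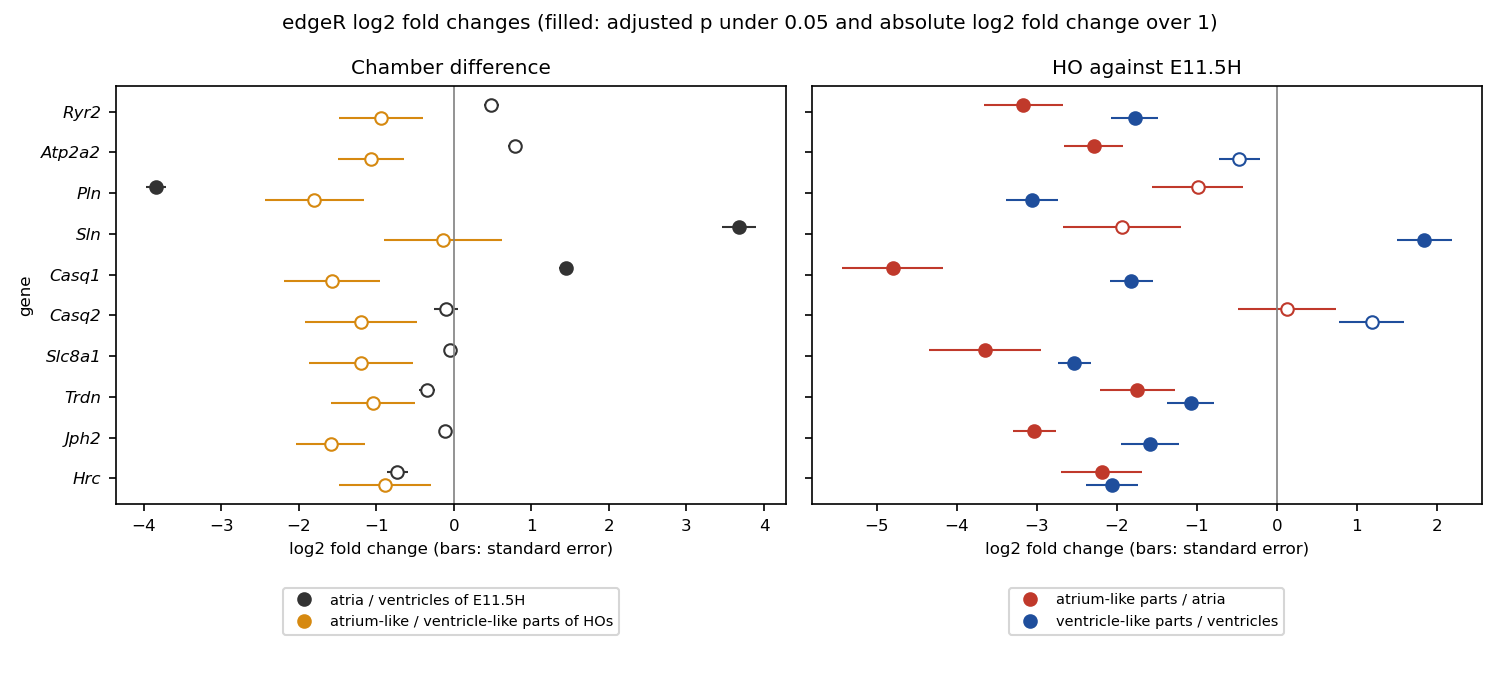
Log2 fold changes of the 10 genes with standard errors, left for atria over ventricles of E11.5H and for atrium-like over ventricle-like parts of HOs, right for each HO part over the matching embryonic chamber, with filled points for called genes. In HOs the chamber values ran from -1.80 for Pln to -0.14 for Sln and none was called, and against the embryo Casq1 had the lowest value, -4.80, and Sln in ventricle-like parts the highest, 1.85.

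Between the HO parts, all 10 genes had lower fitted levels in atrium-like parts, and none was called. Their log2 fold changes lay between -1.80 for Pln and -0.14 for Sln, with a median of -1.13 beside -0.027 over all 15703 genes tested, of which 0% were called. The edgeR adjusted p ran from 0.750 to 0.962, and 4 of the 10 (889 of all genes, 5.66%) had an unadjusted p under 0.05, namely Jph2, Pln, Casq1 and Atp2a2. DESeq2 called 56 genes (0.357%) and limma-voom 0, in both cases none of the 10. Pln was at -1.80 (standard error 0.64), Jph2 at -1.59 (standard error 0.44), Casq1 at -1.58 (standard error 0.62) and Atp2a2 at -1.07 (standard error 0.42). In 5 of the 10 genes, Pln, Casq1, Jph2, Slc8a1 and Hrc, the FPKM of the atrium-like libraries were all under those of the ventricle-like ones, a pattern seen in 9.25% of all genes tested. The cardiomyocyte list was also lower in atrium-like parts in 16 of 16 genes, with a median of -1.64, and its part in the differences was not tested. Scaled to that list, which moved the median of all genes to 1.40, the direction of 6 of the 10 turned (Ryr2, Atp2a2, Sln, Casq2, Trdn and Hrc, at 0.029 to 1.21), Pln, Casq1, Jph2 and Slc8a1 stayed below 0, and none was called.

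Sln was the gene nearest to 0 between the HO parts, and its value depended on single libraries. It was -0.14 (standard error 0.76) with all libraries, -1.15 without atrium-like replicate 2 (edgeR adjusted p = 0.437), 0.016 without atrium-like replicate 1 and 0.33 without atrium-like replicate 3. Without replicate 2 of both HO parts, the libraries that held Myod1, it was -1.14 (edgeR adjusted p = 0.657). In that fit Pln was at -2.34 and Jph2 at -1.97 (edgeR adjusted p = 0.594 each), and again none of the 10 was called.

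In the embryo, Sln and Pln divided the chambers, and their ratio within a library does not depend on the scaling between libraries. The log2 ratio of Sln to Pln was 1.53, 2.18 and 2.27 in atria of E11.5H and -5.51, -5.87 and -5.16 in ventricles. In HOs it was 2.40, 1.56 and -1.53 in atrium-like parts and -0.32, -0.044 and -1.19 in ventricle-like parts. Per length, all atria and 2 of 3 atrium-like libraries held more Sln than Pln. Every ventricle and ventricle-like library held more Pln than Sln. The transcript widths differ, at 520 bases for Sln and 2480 for Pln. In fragments Pln exceeded Sln in atria replicates 1 (1680 against 1022) and 2 (1117 against 1071) and in atrium-like replicate 2 (971 against 602). The atria exceeded the ventricles by 7.51 on the log2 scale, a 182-fold difference in the ratio, and the atrium-like parts exceeded the ventricle-like parts by 1.33 with overlapping libraries. In two-sided exact permutation tests these gave p = 0.1, the smallest that 3 against 3 libraries allow, and p = 0.4. Leaving out 1 library at a time, the HO difference ran from 0.53 to 2.50.

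From embryo to HO the ratio moved mainly on the ventricular side. Ventricle-like parts were 5.0 above ventricles (31.9-fold, two-sided exact permutation p = 0.1), with no overlap, with Pln lower and Sln higher there. Atrium-like parts were at -1.19 relative to atria, with overlapping libraries (two-sided exact permutation p = 0.7). The chamber difference in the ratio was -6.18 on the log2 scale in HOs relative to E11.5H. An exact permutation test that exchanged embryo and HO labels within each chamber over 400 arrangements gave p = 0.035. Exchanging these labels assumes no embryo to HO change in either chamber, so this p does not test the chamber difference alone. This last test was added to the planned 4, and over the 5 tests of the ratio the adjusted exact permutation p was 0.167 for it, 0.167 for both comparisons with p = 0.1, 0.5 between the HO parts and 0.7 for the atrial side.

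**Figure D3:**
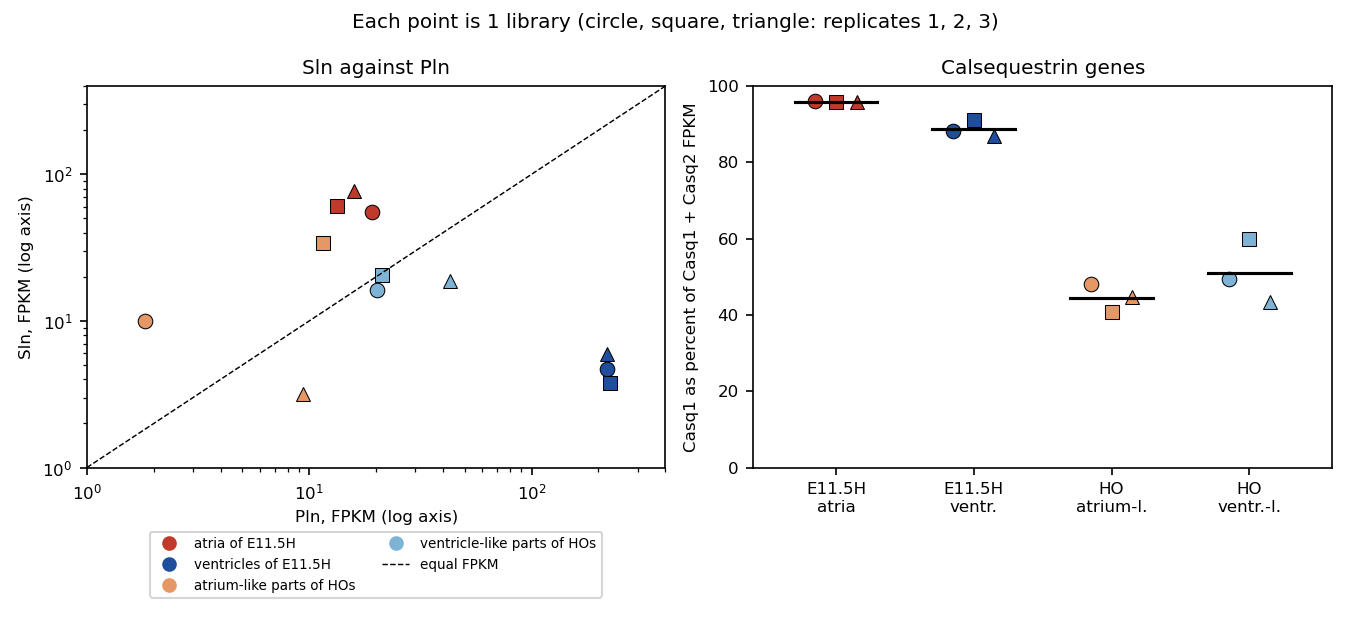
Left, FPKM of Sln against Pln in each library on log axes, with a dashed line where both are equal. Right, Casq1 as a percent of Casq1 plus Casq2 with the mean of 3 libraries as a line. Embryonic atria and ventricles form separate groups in both panels, at 95.7 to 96.0% and 87.0 to 91.1% Casq1, while HO libraries lie between 40.8 and 59.9%.

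Relative to the pump, the inhibitors had different shares in the 4 groups. In E11.5H, Pln amounted to 3.07 to 5.15% of the Atp2a2 FPKM in atria, but to 96.9 to 110.3% in ventricles. In HOs its share was 5.37 to 13.4% (atrium-like) and 9.79 to 23.9% (ventricle-like). Embryonic ventricles therefore stood apart, with about as much Pln as pump transcript per length. Sln amounted to 14.0 to 21.4% of Atp2a2 in atria, 1.61 to 2.80% in ventricles, 4.55 to 29.6% in atrium-like parts and 7.83 to 19.0% in ventricle-like ones. Both inhibitors together made 17.1 to 25.8% of Atp2a2 in atria, 98.5 to 113% in ventricles, 17.9 to 39.2% in atrium-like parts and 17.6 to 38.5% in ventricle-like ones. The HO parts shared 1 range, and it overlapped that of atria but not that of ventricles.

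Among the calsequestrins, Casq1 made up most of the transcripts in the embryo. Its share of Casq1 plus Casq2 FPKM was 95.7 to 96.0% in embryonic atria and 87.0 to 91.1% in embryonic ventricles. The HO shares were 40.8 to 48.2% (atrium-like) and 43.3 to 59.9% (ventricle-like), below every embryonic library. The highest share in an HO library, 59.9%, was that of ventricle-like replicate 2, which held Myod1, and the lowest, 40.8%, that of atrium-like replicate 2, which held it too.

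Atrium-like parts were compared with atria of E11.5H to describe the change from embryo to HO. Of the 10 genes, 7 were called lower and none higher, against 24.8% of 15418 genes called in either direction and 8.81% called lower. Of all genes tested here 2462 were called higher. The largest difference was in Casq1, 27.8-fold lower (log2 fold change -4.80, standard error 0.63, edgeR adjusted p = 0.00470). Slc8a1 was 12.5-fold lower (log2 fold change -3.65, standard error 0.70, edgeR adjusted p = 0.0125) and Ryr2 8.98-fold lower (log2 fold change -3.17, standard error 0.50, edgeR adjusted p = 0.00722). Jph2 was at -3.03 (standard error 0.27, edgeR adjusted p = 0.00192) and Atp2a2 at -2.29 (standard error 0.37, edgeR adjusted p = 0.00789). The channel, the junction, the exchanger and the pump were thus lower, as were Hrc at -2.19 (edgeR adjusted p = 0.0209) and Trdn at -1.74 (edgeR adjusted p = 0.0329). The calls of Trdn and Hrc were lost without any 1 of the 3 atria libraries (edgeR adjusted p = 0.0658 to 0.107), and that of Slc8a1 without atria replicate 1 (edgeR adjusted p = 0.0508).

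Pln, Sln and Casq2 were not called on the atrial side. Pln was at -0.99 (standard error 0.57, edgeR adjusted p = 0.227), although every atrium-like library lay below every atrium. Sln was at -1.93 (standard error 0.74, edgeR adjusted p = 0.0928), and at -3.00 (edgeR adjusted p = 0.0104) without atrium-like replicate 2, which held Myod1. DESeq2 and limma-voom called Sln lower with all libraries (-1.93 and -2.39, adjusted p = 0.0232 and 0.0369). Casq2 was at 0.13 (standard error 0.61, edgeR adjusted p = 0.892), with an overlap of the groups, and at -0.32 without atrium-like replicate 2.

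Ventricle-like parts against ventricles of E11.5H gave 7 genes called lower and 1 called higher, against 18.9% of 15094 genes called in either direction, 7.35% lower and 11.6% higher. Pln was 8.34-fold lower (log2 fold change -3.06, standard error 0.33, edgeR adjusted p = 0.00273) and Slc8a1 5.78-fold lower (log2 fold change -2.53, standard error 0.21, edgeR adjusted p = 0.00153). Hrc was at -2.06 (edgeR adjusted p = 0.00772), Casq1 at -1.82 (edgeR adjusted p = 0.00683), Ryr2 at -1.77 (edgeR adjusted p = 0.00914), Jph2 at -1.58 (edgeR adjusted p = 0.0234) and Trdn at -1.07 (edgeR adjusted p = 0.0386). Sln was the gene called higher, by 1.85 (3.6-fold, standard error 0.34, edgeR adjusted p = 0.0123). It was at 1.79 (edgeR adjusted p = 0.0203) without ventricle-like replicate 2, the library with Myod1. The part of skeletal muscle cells in the Sln value was not tested. Without ventricle replicate 1 or 2 the call of Sln was lost (edgeR adjusted p = 0.0688 and 0.0674).

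Atp2a2 and Casq2 were not called on the ventricular side. Atp2a2 was at -0.47 (standard error 0.26, edgeR adjusted p = 0.213), with overlapping libraries, and Casq2 at 1.18 (standard error 0.41, edgeR adjusted p = 0.0741). Without ventricle-like replicate 2, Casq2 was at 1.53 (edgeR adjusted p = 0.00798) and called. Trdn lost its call without any 1 of 5 libraries, all but ventricle-like replicate 3, and Jph2 without any ventricle library or without ventricle-like replicate 1 (edgeR adjusted p = 0.0535 to 0.0882).

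**Figure D4:**
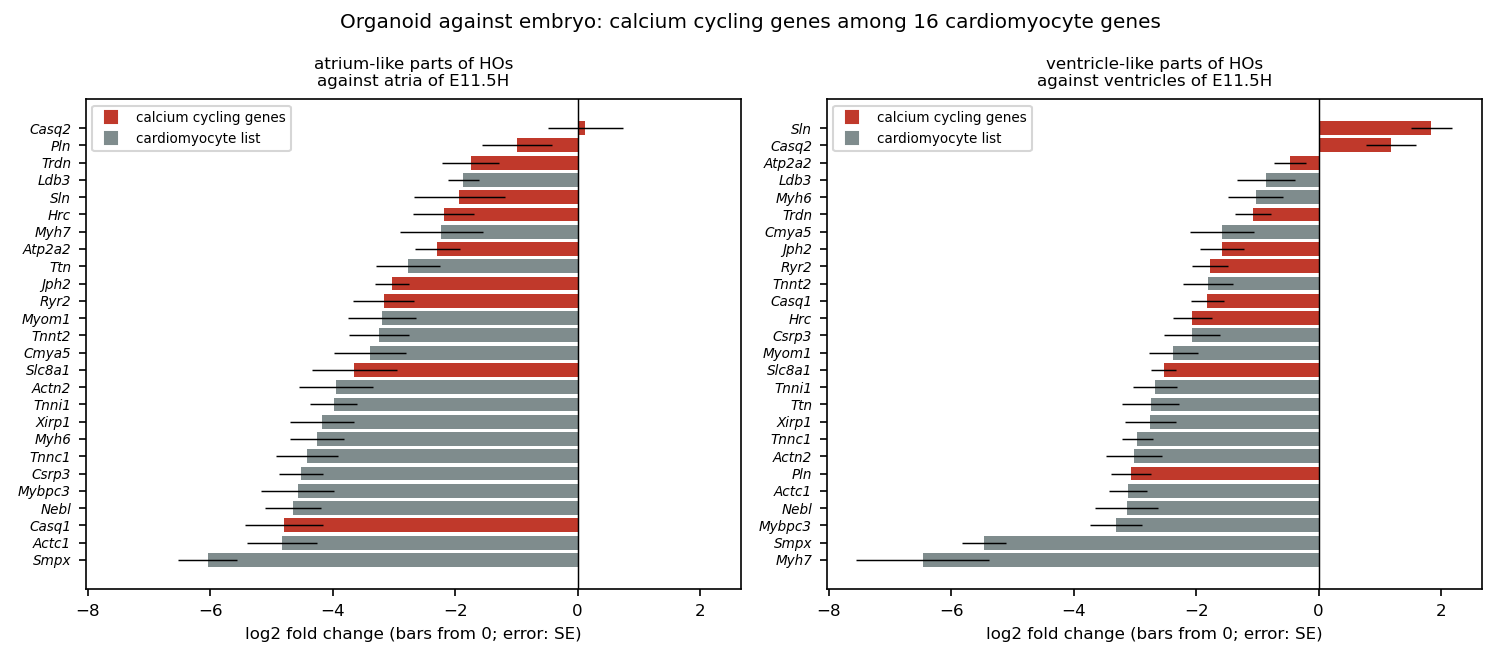
Log2 fold changes with standard errors of the 10 calcium cycling genes (red) and the 16 cardiomyocyte genes (grey), sorted, for atrium-like parts over atria and for ventricle-like parts over ventricles. All 16 grey bars point down in both panels, with medians of -4.08 and -2.74, beside -2.24 and -1.68 for the calcium cycling genes.

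Lists of cell type markers moved with these differences, and their part in them was not tested. Of the cardiomyocyte genes, in atrium-like parts 16 of 16 were called lower with a median of -4.08, and in ventricle-like parts 13 of 16 with a median of -2.74. The calcium cycling genes had medians of -2.24 and -1.68, and all genes tested 0.062 and 0.093. Gut epithelium genes were called higher in 8 of 8 and 6 of 7 tested, and hepatocyte and visceral endoderm genes in 8 of 8 and 5 of 7. Endothelial genes had values below 0 in 8 of 8 in both parts (medians -2.92 and -3.22), with 2 called lower in each, and smooth muscle genes had 3 of 6 called lower in each. Fibroblast genes had 3 of 8 called higher in each part, with 1 lower in atrium-like parts, and of the neural genes none of 7 was called. When libraries were scaled instead to an equal mean of the cardiomyocyte list, the median of all genes moved to 4.2 and 3.24, 98.2% and 98.5% of genes came out higher in HOs, and the direction of most calcium cycling genes turned. On this scale 6 of the 10 were called higher and none lower in atrium-like parts, and 7 higher and none lower in ventricle-like parts, in place of 0 higher and 7 lower and of 1 higher and 7 lower. Of all genes tested, 92.9% and 92.2% were called higher on it, so the counts of the 10 lay below the background. Casq2 had the highest value relative to the list on the atrial side, 3.87 (edgeR adjusted p = 1.33e-04), and 4.14 on the ventricular side (edgeR adjusted p = 4.05e-04). Sln was at 2.13 and 5.01 and Atp2a2 at 1.65 and 2.55. Casq1 at -1.02 in atrium-like parts and Pln at -0.11 in ventricle-like parts were the 2 values below 0, and neither was called. Relative to the median of all genes on this scale, each of the 10 lay lower in atrium-like parts, and all but Sln and Casq2 lay lower in ventricle-like parts.

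On the same scale Slc8a1 was at 0.076 in atrium-like parts (edgeR adjusted p = 0.887) and 0.49 in ventricle-like parts (edgeR adjusted p = 0.258). Ryr2 was at 0.66 (edgeR adjusted p = 0.174) and 1.18 (edgeR adjusted p = 0.0159). Jph2 was at 0.97 and 1.35, Trdn at 2.10 and 1.86, Hrc at 1.65 and 0.90, Pln in atrium-like parts at 2.80 and Casq1 in ventricle-like parts at 1.28. Between the chambers of E11.5H this scaling moved the median of all genes from 0.014 to 0.43, kept the directions of Sln at 4.10, Pln at -3.44 and Casq1 at 1.85, and brought Atp2a2 past the fold limit at 1.21. It turned the small differences of Trdn, Jph2, Casq2 and Slc8a1 to values of 0.061 to 0.36.

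Whether the chamber difference itself differed between HOs and E11.5H was tested as an interaction over all 12 libraries. None of the 10 genes was called, and 0.152% of 16494 genes were. Before adjustment 6 of the 10 had p under 0.05, as had 11.7% of all genes. DESeq2 called 3 of the 10 (Sln, Casq1 and Atp2a2) and 2.66% of all genes, and limma-voom none of the 10 and 0.0728% of all genes. Sln had the largest value, with a chamber difference in HOs at -3.80 relative to E11.5H (standard error 0.86, edgeR adjusted p = 0.171). Casq1 followed at -3.00 (standard error 0.67, edgeR adjusted p = 0.167), Pln at 2.05 (standard error 0.70, edgeR adjusted p = 0.329) and Atp2a2 at -1.84 (standard error 0.48, edgeR adjusted p = 0.218). Without replicate 2 of both HO parts, 3 genes were called, Sln at -4.79, Atp2a2 at -2.47 and Jph2 at -1.83 (edgeR adjusted p = 0.0192, 0.0156 and 0.0313), and 1.66% of all genes were called in that fit. Leaving out single libraries, 0 to 2 genes were called, with 2 (Sln and Atp2a2) without atrium-like replicate 2, where 1.27% of all genes were called, and 1 (Casq1, edgeR adjusted p = 0.0427) without atrium-like replicate 1, where 0.212% were.

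**Figure D5:**
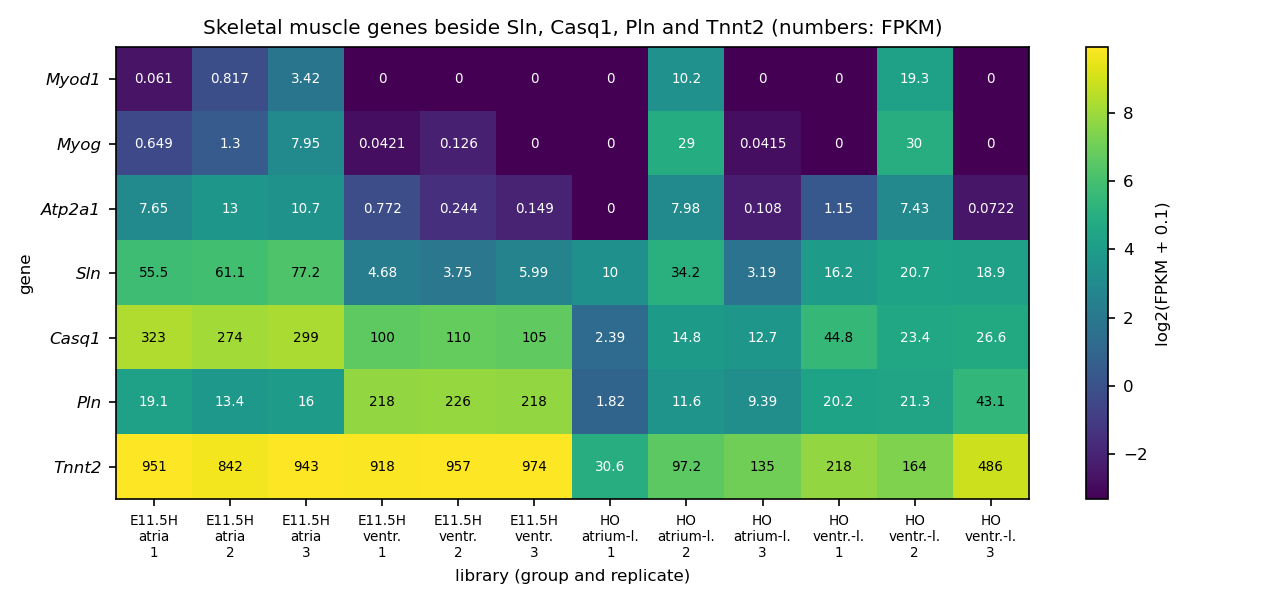
FPKM of the skeletal muscle genes Myod1, Myog and Atp2a1 beside Sln, Casq1, Pln and the cardiomyocyte gene Tnnt2 in each of the 12 libraries, coloured by log2(FPKM + 0.1). Myod1 is at 10.2 and 19.3 FPKM in replicate 2 of the HO parts, at 0.061 to 3.42 FPKM in atria and at 0 in the other libraries.

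Skeletal muscle genes were examined beside these values, and the part of skeletal muscle cells in them was not tested. In E11.5H 7 of the 14 genes of that list could be tested. Of these 3 were called higher in atria, the chamber with more Sln and Casq1, against 4.9% of all genes called in either direction. The 14 genes summed to 65.8 to 79.3 FPKM in embryonic atria and 51.0 to 58.0 FPKM in embryonic ventricles. Their sums in HOs were 5.09 to 158 FPKM (atrium-like) and 7.47 to 154 FPKM (ventricle-like), with the highest sum in replicate 2 of each and as many as 9 of 14 genes at 0 in another library. In atria Myod1 was at 0.061, 0.817 and 3.42 FPKM and in ventricles at 0. Sln was 55.5 FPKM in the atrial library with the least Myod1 and 77.2 FPKM in that with the most. Casq1 was 323 and 299 FPKM in these libraries. The 14 genes summed to 79.3, 65.8 and 75.8 FPKM in atria replicates 1 to 3, so the sum was highest where Myod1 was lowest. Their mean of log2(FPKM + 0.1) rose with Myod1, at -0.859, -0.302 and 0.702. Atp2a1, which encodes the SERCA pump of fast skeletal muscle, was at 7.65 to 13 FPKM in atria, 0.149 to 0.772 FPKM in ventricles, and 7.98 and 7.43 FPKM in replicate 2 of the HO parts, with at most 1.15 FPKM in the other HO libraries.

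Beyond these 10, a list of 55 genes of Ca2+ release, uptake, membrane flux and their regulators was examined, which had been set up with earlier results known. Of 51 tested between the chambers of E11.5H, 4 were called, each higher in atria, against 4.9% of all genes. Among them were Atp2a1 (4.68, edgeR adjusted p = 1.02e-04), the ryanodine receptor Ryr3 (2.20, edgeR adjusted p = 0.00343) and Cacna1d (1.27, edgeR adjusted p = 7.09e-04), an L-type channel known from pacemaker and atrial cells. Between the HO parts none of 51 was called. In atrium-like parts against atria 3 were called higher and 13 lower of 51, and in ventricle-like parts against ventricles 7 higher and 7 lower of 53. Of all genes 24.8% and 18.9% were called in either direction, and 8.81% and 7.35% were called lower. On the ventricular side 11.6% were called higher, and on the atrial side 2462 of 15418 genes were. The shares of the list in either direction lay somewhat above the background, as did its shares called lower, mainly on the atrial side. Its share called higher lay below the background on the atrial side and near it on the ventricular side. The list as a whole was not tested. The medians were 0.050 and 0.013, beside -2.24 and -1.68 for the 10 calcium cycling genes.

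Among the called genes with the largest changes, Hspb6, a small heat shock protein of muscle, rose by 2.89 in atrium-like (edgeR adjusted p = 0.0187) and 3.41 in ventricle-like parts (edgeR adjusted p = 0.00229). Ppp1r1a, an inhibitor of protein phosphatase 1, fell by 4.44 in atrium-like (edgeR adjusted p = 0.00238) and by 2.09 in ventricle-like parts (edgeR adjusted p = 0.00353). Of the release genes, Ryr3 fell by 5.84 in atrium-like parts (edgeR adjusted p = 0.0112), from 0.829 to 1.39 FPKM to at most 0.0439 FPKM, and the SR protein sarcalumenin, Srl, fell by 2.10 in ventricle-like parts (edgeR adjusted p = 0.00548). Cacna1c, the main L-type channel of the heart, was lower in both, by -2.36 (edgeR adjusted p = 0.0140) and -1.31 (edgeR adjusted p = 0.0304). Cacna1d fell by 3.10 in atrium-like parts (edgeR adjusted p = 0.00848), and the store sensor Stim1 (1.53, edgeR adjusted p = 0.0177) and the SERCA-binding S100a1 (1.41, edgeR adjusted p = 0.0189) were higher there. Stim1 was called higher in ventricle-like parts too (1.12, edgeR adjusted p = 0.0345). S100a1 was at 0.89 in those parts (edgeR adjusted p = 0.0270), below the fold limit. In ventricle-like parts Camk2b (2.51, edgeR adjusted p = 0.0452) and Ppp1r3a (1.59, edgeR adjusted p = 0.0278) were higher and Camk2a (-1.97, edgeR adjusted p = 0.0270) was lower. Camk2a (-2.75, edgeR adjusted p = 0.00598) and Srl (-3.01, edgeR adjusted p = 0.0192) were called lower in atrium-like parts as well.

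Some paralogs and partners had been set to be named whatever their values. Ryr1 did not exceed 0.572 FPKM, Slc8a2 0.240 FPKM, Slc8a3 1.22 FPKM and Atp2a3 2.80 FPKM in any library, and Jph1 lay between 0.545 and 1.74 FPKM. Asph, whose locus encodes junctin, was at 8.98 to 10.7 FPKM in E11.5H and 3.04 to 7.69 FPKM in HOs. Camk2d, the main cardiac Ca2+/calmodulin kinase, was at 12.7 to 14.4 FPKM in E11.5H and 8.57 to 11.4 FPKM in HOs. Neither was called, although Asph (-0.76 and -0.77, edgeR adjusted p = 0.0498 and 0.0235) in both HO parts and Camk2d (-0.52, edgeR adjusted p = 0.0173) in ventricle-like parts passed the adjusted p with a fold change below the limit. Mrln and Strit1, which encode other small peptides that act on SERCA, were listed at 0 in most libraries and reached 2.07 and 0.35 FPKM.

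The genes whose pattern over the 12 libraries was most like Pln, by Pearson r of log2(CPM + 1) among 12068 genes, were Myl2 (0.988), Mb (0.987), 3425401B19Rik (0.964), Rcan1 (0.939) and Micos10 (0.932). Myl2, the ventricular myosin light chain, was at 4954 to 5037 FPKM in ventricles and 47.7 to 120.3 FPKM in atria of E11.5H, and at 3.25 to 31.3 FPKM in atrium-like parts and 45.8 to 254 FPKM in ventricle-like ones. The ventricle-like libraries thus held less Myl2 than the embryonic ventricles, as they held less Pln. Most like Sln were Nr2f2 (0.945), Shox2 (0.923), Myh11 (0.916), Gstk1 (0.900) and Nr2f1 (0.892). Nr2f2, a transcription factor of atrial and venous cells, was at 16.6 to 17.5 FPKM in atria, 2.13 to 2.57 FPKM in ventricles, 3.37 to 6.72 FPKM in atrium-like parts and 5.76 to 6.65 FPKM in ventricle-like ones. The points share the groups and the depth of the libraries, so these values are a description.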

How the data were processed

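RNA-seq values of 12 libraries were taken from 1 deposited table. The authors aligned reads to GRCm38/mm10 with STAR, and the table pairs their expected counts per gene with FPKM. The counting tool, annotation release and use of strand are not given in the sources used here. The labels name a TruSeq kit and the methods a Takara preparation. Deposited expected counts, of which 23.8% were not whole, were rounded, and edgeR 4.0.16 (R 4.3.3) was run on each pair of groups with filterByExpr, TMM and the quasi-likelihood test. The interaction used all 12 libraries. Deposited FPKM gave levels and the Sln to Pln ratio (pseudocount 0.1), tested by exact permutation. Alternatives were DESeq2 1.42.0, limma-voom (limma 3.58.1), DESeq2 size factors in edgeR, no filter, cardiomyocyte scaling, a replicate block, 1 fit of 12 libraries, and each library left out. Leaving out replicate 2 of both HO parts was chosen after seeing the data. The tests were run on simulated data first. The 10 genes and all lists were chosen with earlier results of these data known. From the wider list, at most the 3 largest called changes per direction and comparison (mean of at least 1 FPKM in the higher group) were named, plus fixed partners, overlapping genes and the 5 genes most like Pln and Sln (mean of at least 5 CPM).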

Additional observations from a re-analysis of the deposited data

Results flagged for a closer look

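In the main fit, the change of Sln from embryo to HO had opposite directions in the chambers. In FPKM every atrium-like library lay below every atrium and every ventricle-like library above every ventricle. The difference between the 2 changes was -3.80 on the log2 scale. On the atrial side the change was not called (edgeR adjusted p = 0.0928). Scaled to cardiomyocyte genes, Sln was called higher on both sides, at 2.13 and 5.01, so the opposite directions depended on the scaling. Casq1 differed between the chambers in opposite directions in E11.5H and HOs, without overlap in either tissue, with a difference of -3.00. In the interaction test neither passed (edgeR adjusted p = 0.171 and 0.167).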

How the results depend on the processing

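Results of the 10 genes kept direction and call in all 50 gene values with other size factors and in all 50 without the filter. With DESeq2, 45 values kept both and 5 gained a call. Scaling to cardiomyocyte genes moved all values up, as the list itself had a negative median in each comparison. It reversed, between chambers of E11.5H, Casq2 (0.30), Slc8a1 (0.36), Trdn (0.061) and Jph2 (0.30), and between HO parts Ryr2 (0.38), Atp2a2 (0.30), Sln (1.21), Casq2 (0.029), Trdn (0.30) and Hrc (0.42). In atrium-like parts against atria it reversed Ryr2 (0.66), Atp2a2 (1.65), Pln (2.80), Sln (2.13), Slc8a1 (0.076), Trdn (2.10), Jph2 (0.97) and Hrc (1.65), in ventricle-like parts against ventricles Ryr2 (1.18), Atp2a2 (2.55), Casq1 (1.28), Slc8a1 (0.49), Trdn (1.86), Jph2 (1.35) and Hrc (0.90), and in the interaction Trdn (0.24) and Hrc (0.75). Casq2 in atrium-like parts was at -0.14 by limma-voom. In 1 fit of 12 libraries 1 gene was called between chambers of E11.5H, in place of 3. In the interaction DESeq2 called 3 genes, and 3 were called without replicate 2 of both HO parts. For these the cause was not tested. Leaving out single libraries, 3 to 3, 0 to 0, 4 to 8, 5 to 8 and 0 to 2 genes were called in the 5 comparisons, with 4 without atria replicate 1 and 5 without ventricle replicate 1. Values that crossed 0 were Slc8a1 (-0.14 to 0.0041) and Casq2 (-0.24 to 0.066) between embryonic chambers, Sln between HO parts (-1.15 to 0.33), Casq2 in atrium-like parts (-0.32 to 0.58) and Hrc in the interaction (-0.41 to 0.30). The Sln to Pln difference ran from 7.33 to 7.74, 0.53 to 2.50, -1.98 to -0.017 and 4.76 to 5.33.

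Per the methods, both parts were cut from 3 biological replicates of HOs. No source used here ties the replicate numbers of the parts or chambers to each other, and the main fits were unpaired. Deviations of same-numbered libraries from their group means correlated at 0.011 to 0.045 in E11.5H and at -0.021 to 0.071 between embryo and HO. In HOs they correlated at 0.017, 0.59 and 0.36, and atrium-like replicate 1 was closer to ventricle-like replicate 3 (0.435). Whether the HO parts were paired by number was thus not settled. With the replicate block 3, 0, 5, 7 and 0 genes were called in the 5 comparisons, the adjusted p of the 10 between HO parts ran from 0.541 to 0.777 by edgeR with Sln at -0.62, Casq2 in atrium-like parts was at -0.21, and Trdn (edgeR adjusted p = 0.0566 and 0.0527) and Hrc on the atrial side (edgeR adjusted p = 0.0533) lost their calls. With 54 or more fragments per gene and library, counting error was small beside the coefficient of variation of 0.677 between HO libraries.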
